A study of Rattus norvegicus with 10 samples.

Results

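The 10 genes described here are the transcription factor Nrf2 (gene Nfe2l2), a set of its best known target genes (Nqo1, Hmox1, Gclc, Gclm, Txnrd1 and Srxn1) and the antioxidant enzymes Sod1, Cat and Gpx4. They form a list of named genes, drawn up with earlier results of these data known. All 10 were found by symbol among the 17168 genes of the deposited tables, and all 10 were among the 12161 genes abundant enough to be tested. RNA came from the left hippocampus of 10 males, aged 11 months, of the TgF344-AD line. TgF344-AD is a rat model of Alzheimer's disease with mutant human amyloid precursor protein and presenilin 1 genes, and every rat of both groups carried the transgenes, so no wild-type level is given. The untreated group (n = 5) was labelled as having no treatment. The RG2833 group (n = 5) ate chow with 750 mg of RG2833 per kg from 5 months of age, for 6 months. RG2833 blocks HDAC1 and HDAC3, enzymes that remove acetyl groups from histones. The design text mentions ibudilast in its account of the timing, while the title and the sample labels name RG2833, which was followed. Each library is taken as 1 rat, and p-values for a difference between groups weigh it against the spread between these libraries.

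Nrf2 is the main activator of the cellular response to oxidants and electrophiles. In resting cells Keap1 holds Nrf2 and hands it to a Cul3 ubiquitin ligase for destruction. Oxidized Keap1 lets Nrf2 accumulate, pair with a small Maf protein and bind antioxidant response elements, a DNA motif from which the repressor Bach1 is displaced. The targets make and use glutathione, keep thioredoxin reduced, degrade heme and detoxify quinones. Much of this control acts on the Nrf2 protein, which RNA sequencing does not measure. In brain the response is described as strongest in astrocytes and other non-neuronal cells.

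The windows around the start sites were read for the core of the antioxidant response element, TGACNNNGC, and for TGAGTCA, the AP-1 motif that also lies within many Maf-type elements. Both strands were searched. RefSeq windows of the GRCr8 build, 250 bases before to 50 bases after a start site, were matched by symbol for 9 of the 10 genes (12 windows); Hmox1 did not match. TGACNNNGC was present in 3 of these 12 windows, and in 12.1% of all 33469 windows. TGAGTCA was present in 1 of the 12, against 4.63% of all windows. A match describes letters only, and elements farther away lie outside these windows. No match of one motif overlapped a match of the other. The 3 windows with TGACNNNGC are those of Gclm, Txnrd1 and Nfe2l2, and the matches are shown in capitals with their neighbouring bases, on the strand of the gene.
Gclm, 172 to 164 bases before the start, TGACNNNGC on the opposite strand: tgcggtttctGCTTAGTCAttgtcttcca
Txnrd1, 78 to 70 bases before the start, TGACNNNGC on the opposite strand: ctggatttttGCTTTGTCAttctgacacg
Nfe2l2, bases 39 to 47 after the start, TGACNNNGC on the strand of the gene: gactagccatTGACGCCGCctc

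Srxn1 and Nqo1 are shown at greater length because Srxn1 was lowest in 2 of the 3 libraries in which Nqo1 was highest. Srxn1 held TGAGTCA 2 times, from 62 to 56 bases before the start and again from 5 bases before it to base 2 after it (capitals). The Nqo1 window held neither motif, so it has no capitals.
Srxn1, GRCr8 chr3:161064562-161064821, plus strand: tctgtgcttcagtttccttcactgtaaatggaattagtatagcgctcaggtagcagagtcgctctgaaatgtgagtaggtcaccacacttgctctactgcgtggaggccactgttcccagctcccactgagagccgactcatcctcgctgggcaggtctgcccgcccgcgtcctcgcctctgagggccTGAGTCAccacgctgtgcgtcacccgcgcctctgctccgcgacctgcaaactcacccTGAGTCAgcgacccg
Nqo1, GRCr8 chr19:52220268-52220517, minus strand: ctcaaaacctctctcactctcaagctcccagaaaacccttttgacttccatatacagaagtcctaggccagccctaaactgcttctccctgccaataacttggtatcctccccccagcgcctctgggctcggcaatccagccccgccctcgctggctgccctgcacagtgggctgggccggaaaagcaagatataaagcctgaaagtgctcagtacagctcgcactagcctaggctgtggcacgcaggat

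Libraries held from 15118203 to 18533520 expected counts. Ribosomal RNA took from 4.07% to 11.4% of them. Markers of neurons, astrocytes, oligodendrocytes, microglia and endothelium were detected in every library; 0 of the genes in any marker list were at 0 throughout. Markers of choroid plexus, the secretory epithelium of the ventricles, summed to 8040 CPM in untreated 2 and 9399 CPM in RG2833 1, against 11.1 to 287 CPM in the other libraries. CPM are counts per 1e+06 of an effective library size, with TMM (trimmed mean of M-values) factors applied. Because the tissue was measured in bulk, fewer cells of a type and less RNA per cell cannot be told apart.

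For none of the 10 genes was the difference between RG2833 and untreated rats larger than the spread between rats. In edgeR's quasi-likelihood test, 0 of 10 passed an adjusted p of 0.05, as did 0% of all genes tested. At an unadjusted p under 0.05 there were 0 of 10, against 5.66% (688) of all genes; DESeq2 also placed 0 of the 10 there. The groups did not overlap for 0 of the 10, against 1.00% of all genes. The smallest adjusted p among the 10 was 0.904. Of the 10 genes, 6 had a higher and 4 a lower mean in RG2833, and their median log2 fold change was 0.06, against -0.01 for all genes tested. The design did bound the size of a difference. All 10 of the 95% intervals lay within 1.5-fold either way, and 6 lay within 1.25-fold. Leaving out untreated 3 brought 1 of the 10, Gpx4, to an unadjusted p of 0.0451 (adjusted p = 0.347, edgeR); 0 of 10 did so without any other library. The background of 688 genes is itself set by a few libraries: it was 1732 without untreated 3, 375 without RG2833 4 and 424 without RG2833 5.

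**Figure D1:**
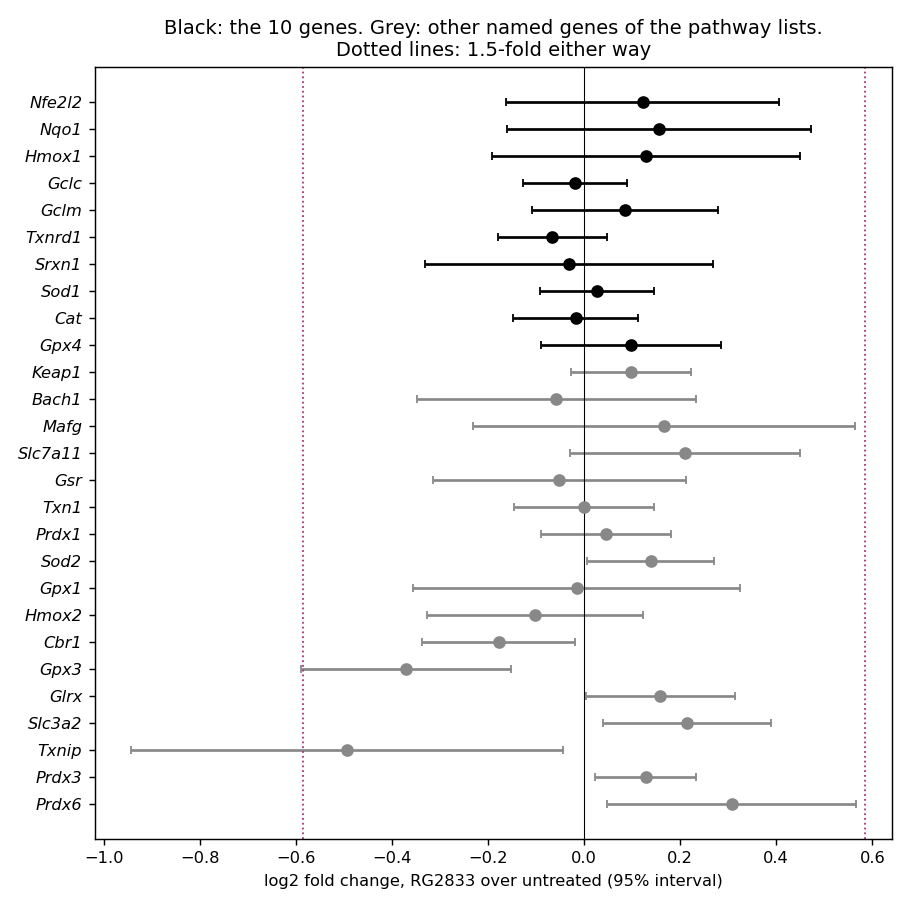
Log2 fold change of RG2833 over untreated (x axis) with its 95% interval, from the edgeR fit, for the 10 genes (black) and the other genes named in the text (grey); dotted lines mark 1.5-fold either way. All 10 black intervals cross 0 and stay inside the dotted lines.

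Nfe2l2, the Nrf2 transcript itself, was measured at 27.99, 37.6, 44.7, 40.2 and 32.8 CPM in untreated rats 1 to 5 and 37.3, 37.6, 34.3, 45.6 and 44.6 CPM in RG2833 rats 1 to 5. The highest values came from both groups, in RG2833 4, untreated 3 and RG2833 5, and the groups overlapped. Its means were 36.6 ± 6.47 CPM without and 39.9 ± 4.94 CPM with RG2833 (SD, n = 5 each), and 4 of the 5 RG2833 rats lay above the untreated mean (difference on the log2 scale 0.12, SE 0.13, 95% interval -0.16 to 0.41; edgeR adjusted p = 0.925, exact permutation p = 0.405). The difference was 0.04 on the log2 scale without untreated 1, the lowest library, 0.07 without RG2833 4, 0.08 without RG2833 5 and 0.20 without untreated 3.

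The regulators of Nrf2 did not pass either. Keap1, its cytosolic inhibitor, had means of 86.5 ± 4.75 CPM without and 92.7 ± 4.30 CPM with RG2833 (SD, n = 5 each). All 5 RG2833 rats lay above the untreated mean of Keap1, but the ranges overlapped (difference on the log2 scale 0.10, SE 0.06, 95% interval -0.03 to 0.22; edgeR adjusted p = 0.841, exact permutation p = 0.0635). Bach1, the repressor that competes for the same elements, was at 9.73 ± 1.75 CPM without and 9.35 ± 1.06 CPM with RG2833 (log2 fold change -0.06, SE 0.13), and the sign turned to 0.04 without untreated 3. Mafg, a small Maf partner, had a log2 fold change of 0.17 (SE 0.18; edgeR adjusted p = 0.926) and was highest in untreated 3, RG2833 5 and RG2833 4, at 54.1, 53.5 and 53.3 CPM, against 31.3 to 42.0 CPM in the other libraries. Its difference ran from 0.08 without RG2833 5 to 0.31 without untreated 3. Within a library, where scaling cancels, the log2 ratio of Nfe2l2 to Keap1 counts was -1.26 ± 0.27 in untreated and -1.22 ± 0.13 in RG2833 rats (SD, n = 5 each; difference 0.03, exact permutation p = 0.841, 0.841 adjusted over 4 ratios). Its difference was -0.06 without untreated 1, -0.02 without untreated 5 and -0.01 without RG2833 4. The log2 ratio of Nfe2l2 to Bach1 counts was 1.91 ± 0.34 and 2.09 ± 0.16 (difference 0.18, exact permutation p = 0.365, adjusted p = 0.487), and this difference was 0.04 without untreated 1.

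Nqo1 encodes a reductase that detoxifies quinones and is a standard reporter of Nrf2 activity. It was measured at 12.9, 13.3, 17.9, 15 and 13.5 CPM in untreated rats 1 to 5 and 13.4, 14.4, 13.9, 20.4 and 18.9 CPM in RG2833 rats 1 to 5. A group of 3 libraries, RG2833 4, RG2833 5 and untreated 3, stood at 17.9 to 20.4 CPM, and the other 7 lay between 12.9 and 15 CPM. Its means were 14.5 ± 2.06 CPM without and 16.2 ± 3.21 CPM with RG2833 (SD, n = 5 each), a higher RG2833 mean carried by 2 of the 5 rats (difference on the log2 scale 0.16, SE 0.14, 95% interval -0.16 to 0.47; edgeR adjusted p = 0.919, exact permutation p = 0.310). The log2 fold change was 0.06 without RG2833 4, 0.10 without RG2833 5 and 0.24 without untreated 3.

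Hmox1, the inducible heme oxygenase, turns heme into biliverdin, iron and carbon monoxide. It was measured at 7.50, 9.68, 12.7, 9.92 and 9.07 CPM in untreated rats 1 to 5 and 9.55, 9.60, 9.91, 13.3 and 11.1 CPM in RG2833 rats 1 to 5. The same 3 libraries were its highest, and untreated 1 its lowest. Its means were 9.76 ± 1.87 CPM without and 10.7 ± 1.58 CPM with RG2833 (SD, n = 5 each; difference on the log2 scale 0.13, SE 0.15, 95% interval -0.19 to 0.45; edgeR adjusted p = 0.932, exact permutation p = 0.381). Its difference was 0.05 without untreated 1, 0.04 without RG2833 4 and 0.24 without untreated 3. Its counts, from 130 to 212 per library, were the fewest of the 10 genes. At 130 counts, counting alone gives a coefficient of variation (CV) of 8.77%, while the CV between rats was 19.2% in untreated and 14.8% in RG2833.

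**Figure D2:**
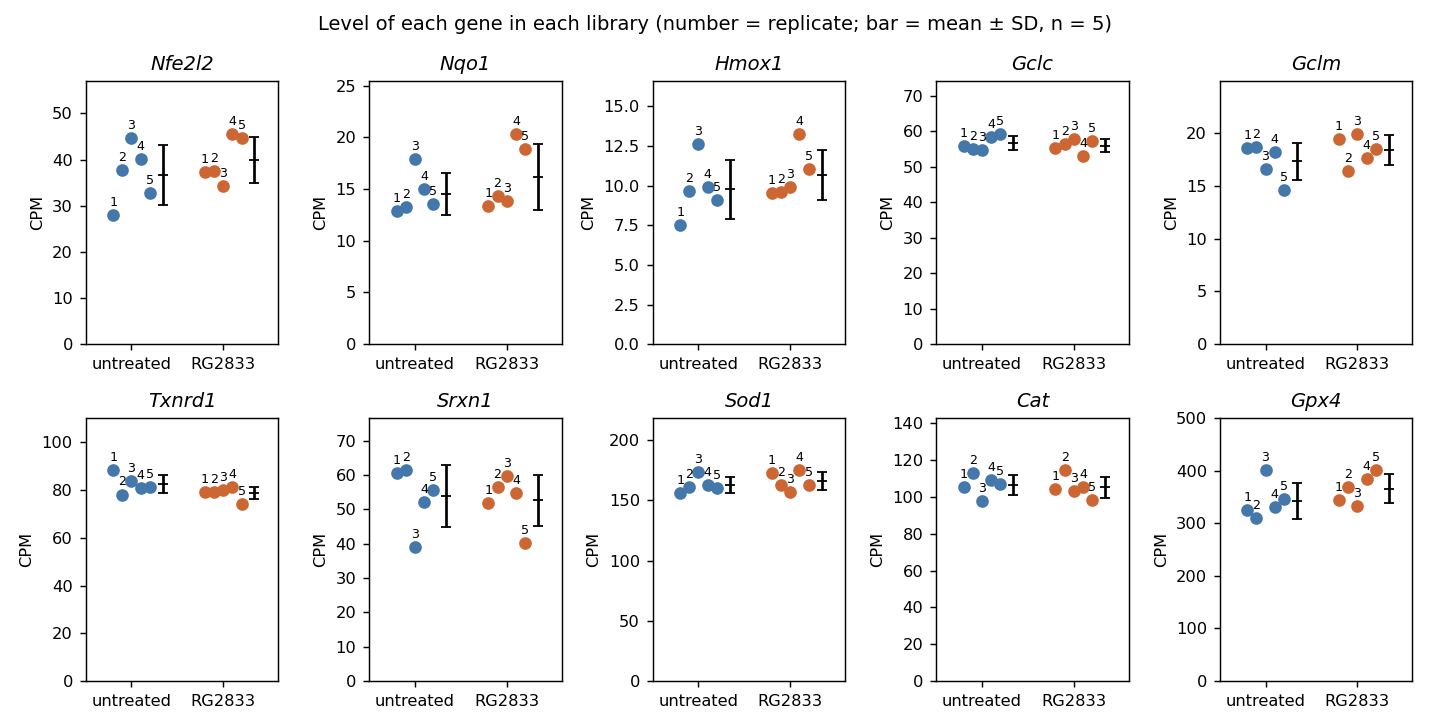
CPM (y axis, from 0) of each of the 10 genes in each library, with the replicate number beside the point and the mean ± SD of 5 rats as a bar. The groups overlap in all 10 panels, and libraries 3 of untreated and 4 and 5 of RG2833 are the highest for Nfe2l2, Nqo1 and Hmox1.

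Glutathione synthesis begins with glutamate-cysteine ligase, whose catalytic subunit is Gclc and whose modifier subunit is Gclm. Gclc was measured at 55.97, 55.1, 54.9, 58.3 and 59.3 CPM in untreated rats 1 to 5 and 55.4, 56.4, 57.8, 52.98 and 57.3 CPM in RG2833 rats 1 to 5. It was among the steadiest genes of the tissue, with 1.12-fold between its highest and lowest library (difference on the log2 scale -0.02, SE 0.05, 95% interval -0.13 to 0.09; edgeR adjusted p = 0.978, exact permutation p = 0.556). Its near-zero difference had the opposite sign, at 0.0021, without RG2833 4.

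Gclm was measured at 18.6, 18.6, 16.6, 18.2 and 14.6 CPM in untreated rats 1 to 5 and 19.4, 16.4, 19.96, 17.7 and 18.5 CPM in RG2833 rats 1 to 5. The lowest library was untreated 5 and the highest RG2833 3, and 4 of 5 RG2833 rats lay above the untreated mean (difference on the log2 scale 0.09, SE 0.09, 95% interval -0.11 to 0.28; edgeR adjusted p = 0.921, exact permutation p = 0.333). The difference was 0.03 without untreated 5 and 0.05 without RG2833 3. The log2 ratio of Gclm to Gclc counts was -1.71 ± 0.18 in untreated and -1.61 ± 0.11 in RG2833 rats (SD, n = 5 each; difference 0.11, exact permutation p = 0.317, adjusted p = 0.487). Without untreated 5 the difference in this ratio was 0.03. The cystine carrier that feeds the pathway, Slc7a11, had means of 183 ± 17.7 CPM without and 211 ± 30.7 CPM with RG2833 (difference on the log2 scale 0.21, SE 0.11, 95% interval -0.03 to 0.45; edgeR adjusted p = 0.841, exact permutation p = 0.135). Its counts were not whole in any of the 10 libraries, so RSEM divided some of its reads with other genes. Gsr, which regenerates glutathione, had a log2 fold change of -0.05 (SE 0.12), and 0.01 without RG2833 5.

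Txnrd1, the cytosolic selenoenzyme that reduces thioredoxin, was measured at 88.3, 78.2, 83.9, 80.9 and 81.4 CPM in untreated rats 1 to 5 and 79.4, 79.2, 79.9, 81.3 and 74.2 CPM in RG2833 rats 1 to 5. All 5 RG2833 rats lay below the untreated mean, yet 4 of them lay within the untreated range (difference on the log2 scale -0.07, SE 0.05, 95% interval -0.18 to 0.05; edgeR adjusted p = 0.904, exact permutation p = 0.127). The difference was -0.04 without untreated 1 and without RG2833 5. Its substrate Txn1 was at 42.8 ± 3.07 CPM without and 42.8 ± 2.41 CPM with RG2833 (SD, n = 5 each). The difference was 0.0004 on the log2 scale (SE 0.07), with a negative sign without untreated 3 or 4, or RG2833 1, 2 or 3. Prdx1, a peroxiredoxin that thioredoxin recharges, had a log2 fold change of 0.05 (SE 0.06), between 0.02 without untreated 1 and 0.08 without untreated 2.

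Srxn1, sulfiredoxin, repairs peroxiredoxins that have been over-oxidized. It was measured at 60.6, 61.4, 39.1, 52.3 and 55.6 CPM in untreated rats 1 to 5 and 51.95, 56.4, 59.7, 54.8 and 40.3 CPM in RG2833 rats 1 to 5. Untreated 3 and RG2833 5 were the lowest, at 39.1 and 40.3 CPM, and the other 8 libraries lay between 52.0 and 61.4 CPM. These low libraries are 2 of the 3 in which Nqo1 was highest. The group means did not differ beyond this spread (difference on the log2 scale -0.03, SE 0.14, 95% interval -0.33 to 0.27; edgeR adjusted p = 0.991, exact permutation p = 0.802). The sign of the difference turned with the libraries kept: 0.01 without untreated 1, 0.02 without untreated 2, 0.05 without RG2833 5 and 0.02 without both choroid-rich libraries. Srxn1 counts were not whole in any library, so part of its reads were shared out by RSEM.

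Sod1, the cytosolic copper-zinc superoxide dismutase, was measured at 156, 161, 174, 163 and 160 CPM in untreated rats 1 to 5 and 173, 163, 157, 175 and 162 CPM in RG2833 rats 1 to 5. The whole range over 10 rats was 1.12-fold, and the groups overlapped (difference on the log2 scale 0.03, SE 0.05, 95% interval -0.09 to 0.15; edgeR adjusted p = 0.971, exact permutation p = 0.484). Its difference ran from 0.0099 without RG2833 4 to 0.05 without untreated 3, and was 0.0012 without both choroid-rich libraries. Its mitochondrial counterpart Sod2 was measured at 143, 133, 118, 131 and 132 CPM in untreated rats 1 to 5 and 139, 141, 143, 145 and 155 CPM in RG2833 rats 1 to 5. All 5 RG2833 values of Sod2 lay above the untreated mean and 2 of them within the untreated range. Sod2 had an unadjusted edgeR p of 0.0408 and did not pass the adjustment (log2 fold change 0.14, SE 0.06, adjusted p = 0.841; exact permutation p = 0.0238). The log2 ratio of Sod2 to Sod1 counts was -0.31 ± 0.15 in untreated and -0.20 ± 0.10 in RG2833 rats (difference 0.11, exact permutation p = 0.183, adjusted p = 0.487), and it was 0.05 without untreated 3.

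Cat, catalase, which splits hydrogen peroxide in peroxisomes, was measured at 105, 113, 97.8, 109 and 107 CPM in untreated rats 1 to 5 and 104, 114, 103, 105 and 98.1 CPM in RG2833 rats 1 to 5. RG2833 2 and untreated 2 were the highest and untreated 3 and RG2833 5 the lowest (difference on the log2 scale -0.02, SE 0.06, 95% interval -0.15 to 0.11; edgeR adjusted p = 0.983, exact permutation p = 0.706). The sign turned to 0.0043 without untreated 2 and 0.0085 without RG2833 5, and its counts too were not whole in any library.

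Gpx4 is the selenoenzyme that reduces lipid peroxides in membranes and guards against ferroptosis. It was measured at 325, 310, 401, 331 and 346 CPM in untreated rats 1 to 5 and 345, 370, 332, 383 and 401 CPM in RG2833 rats 1 to 5. RG2833 5 and untreated 3 were equally high, and 4 of 5 RG2833 rats lay above the untreated mean (difference on the log2 scale 0.10, SE 0.08, 95% interval -0.09 to 0.28; edgeR adjusted p = 0.917, exact permutation p = 0.246). Its difference was 0.06 without untreated 2 or RG2833 5 and 0.16 without untreated 3. Gpx1, the abundant cytosolic glutathione peroxidase, was at 63.7 ± 14.8 CPM without and 63.1 ± 10.1 CPM with RG2833 (SD, n = 5 each). It was highest in untreated 2 and RG2833 1, at 88.2 and 81.0 CPM, which are the libraries rich in choroid plexus RNA. Elsewhere Gpx1 lay between 52.0 and 66.5 CPM, and the part of that tissue in its level was not tested. Its log2 fold change was -0.02 (SE 0.15), and between 0.0016 and 0.13 without untreated 2 or 3 or without any 1 of RG2833 2 to 5. Hmox2, the constitutive heme oxygenase, differed by -0.10 on the log2 scale (SE 0.10), by -0.18 without untreated 3 and by -0.05 without RG2833 5. A pseudogene copy of Hmox2 is in the tables, and its counts were not whole in any library, so its level is uncertain.

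The 10 genes differed in how much they varied between rats. The biological coefficient of variation estimated by edgeR was 8.46% for Sod1, 8.61% for Gclc, 8.69% for Txnrd1 and 9.03% for Cat. These are values of the fitted model, and for all 4 genes they lay above the observed CV of CPM in both groups. That CV was 3.97% in untreated and 4.57% in RG2833 rats for Sod1, and 3.54% and 3.40% for Gclc. In the fit these 4 stood between the 1.26 and 4.90 percentiles of all genes tested, which places them among the steadiest transcripts here. Gpx4 (11.3%) and Gclm (11.9%) were intermediate, at the 26.3 and 31.8 percentiles. Nfe2l2 (15.7%), Srxn1 (16.5%), Nqo1 (17.2%) and Hmox1 (17.3%) lay at the 56.5 to 63.4 percentiles. For each of these last genes the fitted value lay between the observed CVs of the groups. The steadier genes thus carry the narrower intervals: -0.13 to 0.09 for Gclc, against -0.19 to 0.45 for Hmox1 on the log2 scale. Levels were not compared between genes, because the tables give no transcript lengths.

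Across the 10 libraries, Nfe2l2, Hmox1 and Nqo1 varied together, whatever the treatment. Of the 45 pairs among the 10 genes, 5 passed an adjusted p of 0.05 for Pearson's r of log2 CPM (permutation test, adjusted over 45). By Spearman's rho 2 passed, and 30 pairs had a negative r. The share of all gene pairs that would pass was not computed, so these counts only describe the 45 pairs. Other genes, picked below from all genes tested, had a centred r of 0.96 to 0.98 with Nfe2l2, Hmox1 or Nqo1. Common variation of this kind is thus not particular to the 10 genes. The closest pair was Nfe2l2 and Hmox1, with r = 0.92 and rho = 0.93 (permutation p = 6e-05 and 0.0003, adjusted p = 0.0027 and 0.0135). With untreated 1 and RG2833 4, the libraries farthest from the median of Nfe2l2, left out, r was 0.84. It was 0.92 with values centred within each group and 0.90 in the 7 libraries outside the 3 highest in Nqo1. Nqo1 and Hmox1 had r = 0.89 and rho = 0.88 (permutation p = 0.00031 and 0.00168, adjusted p = 0.00698 and 0.0378), and r = 0.87 without RG2833 4 and 5. For Nfe2l2 and Nqo1, r was 0.85 and rho 0.83 (permutation p = 0.00134 and 0.00452, adjusted p = 0.0201 and 0.0678), and r = 0.87 without untreated 1 and RG2833 4. In the 7 other libraries these last pairs had r = 0.65 and 0.70. The libraries share their scaling; on the unscaled library size the r of the 3 pairs was 0.90, 0.85 and 0.80.

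Gpx4 went with Nqo1 and against Srxn1. Nqo1 and Gpx4 had r = 0.84 and rho = 0.79 (permutation p = 0.00333 and 0.00871, adjusted p = 0.03 and 0.0784), 0.79 without RG2833 4 and 5, and 0.37 in the 7 other libraries, a set whose range of Nqo1 is narrower by its choice. Srxn1 and Gpx4 had r = -0.80 and rho = -0.75 (permutation p = 0.00288 and 0.017, adjusted p = 0.03 and 0.128). Without untreated 3 and RG2833 5 their r was -0.49, and in the 7 other libraries r was -0.49 and rho -0.57. Srxn1 also had a negative r with Nfe2l2 (-0.68), Nqo1 (-0.67) and Hmox1 (-0.59), none of which passed the adjustment (adjusted p = 0.133, 0.133 and 0.201, permutation test). Their rho was -0.58, -0.66 and -0.53 (permutation p = 0.089, 0.0442 and 0.123, adjusted p = 0.307, 0.199 and 0.307). Without the 2 libraries farthest on the other gene, r was -0.85, -0.90 and -0.86, while in the 7 libraries outside the 3 highest in Nqo1 it was -0.52, -0.52 and -0.37, with rho = -0.18, -0.50 and -0.07. Gclc, Gclm and Txnrd1 had r = -0.39, -0.01 and -0.52 with Nfe2l2 (permutation p = 0.261, 0.972 and 0.117, adjusted p = 0.489, 0.994 and 0.277). Their rho was -0.52, -0.24 and -0.21, and r without untreated 1 and RG2833 4 was -0.44, 0.17 and -0.20. In the same 7 libraries r was -0.03 for Gclc, 0.10 for Gclm and -0.85 for Txnrd1, so the size of these relations depended on the libraries kept.

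**Figure D3:**
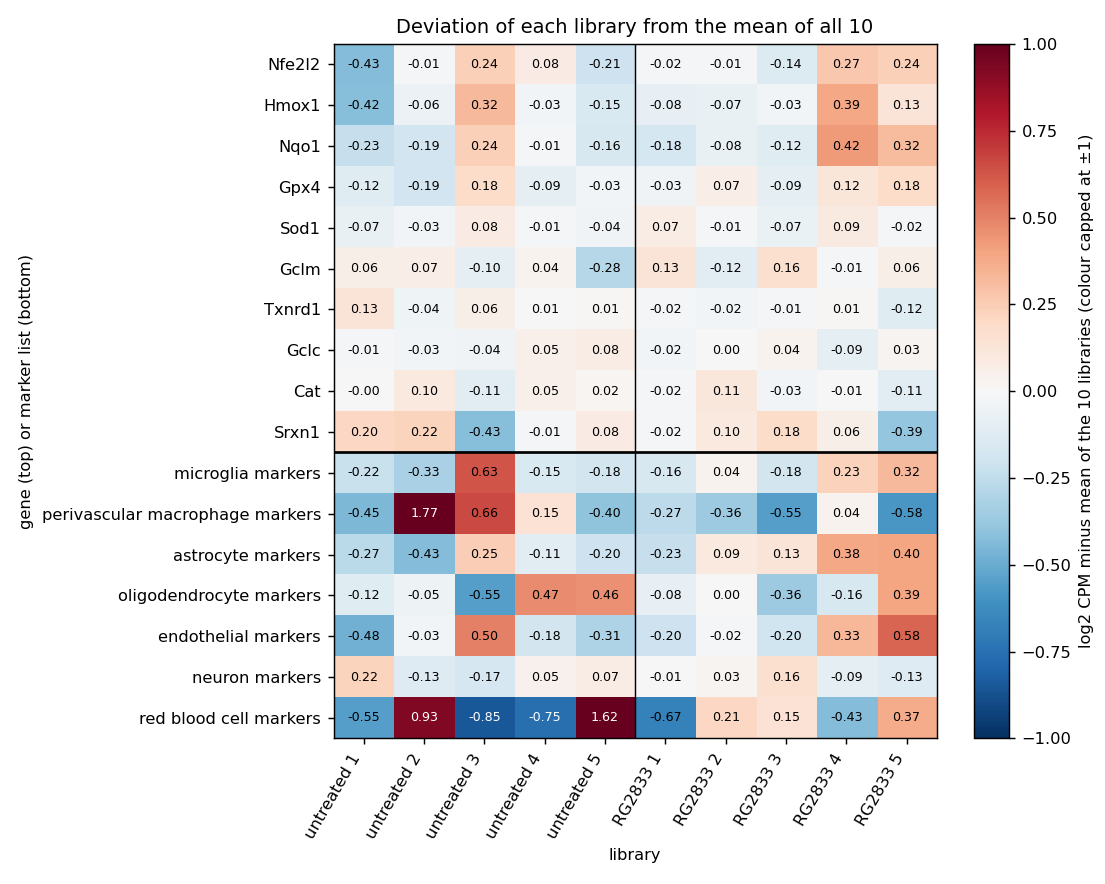
Deviation of log2 CPM from the mean of the 10 libraries (colour and printed value), for the 10 genes (top) and the mean of each marker list (bottom), with libraries on the x axis and a line between untreated and RG2833. Untreated 3, RG2833 4 and RG2833 5 are above 0 for Nfe2l2, Hmox1, Nqo1, Gpx4 and the microglia, astrocyte and endothelial lists, while Srxn1 is at -0.43 and -0.39 in untreated 3 and RG2833 5.

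By Pearson's r, markers of 4 cell types varied with 5 of the 10 genes: Nfe2l2, Nqo1, Hmox1, Gpx4 and Srxn1. The 10 genes were set against the mean log2 CPM of 7 marker lists, 70 relations in all; choroid plexus was left out because 2 libraries form a cluster of their own. Of these, 14 passed an adjusted p of 0.05 (permutation test) by r and 7 by Spearman's rho. The share of all genes that would pass with these lists was not computed, so the counts only describe the 10 genes. By r the passing relations involved 4 of the 10 genes for microglia, 5 for endothelium, 3 for astrocytes and 2 for neurons. By rho these numbers were 3, 2, 2 and 0. There were 0 by either measure for the perivascular macrophage, oligodendrocyte and red blood cell lists. Gclc, Gclm, Txnrd1, Sod1 and Cat passed with 0 of the 7 lists. Gpx4 and the microglia list had r = 0.93 and rho = 0.90 (permutation p = 3e-05 and 0.00073, adjusted p = 0.0021 and 0.0256). That relation was 0.95 without untreated 3 and RG2833 5, and 0.94 in the 7 libraries outside the 3 highest in Nqo1.

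The endothelial list went with Nfe2l2 (r = 0.89, rho = 0.89; permutation p = 0.00055 and 0.00128, adjusted p = 0.0128 and 0.0266) and with Hmox1 (r = 0.86, rho = 0.84; permutation p = 0.00112 and 0.00391, adjusted p = 0.0196 and 0.0391). Without untreated 3 and RG2833 5 these were 0.90 and 0.93, and in the 7 other libraries 0.84 and 0.81. The other endothelial relations that passed by r had an r smaller in size in those 7 libraries. It went from 0.89 to 0.47 for Nqo1, from 0.83 to 0.17 for Gpx4 and from -0.79 to -0.08 for Srxn1. Without untreated 3 and RG2833 5 their r was 0.84, 0.60 and -0.20. The 3 libraries left out of the 7 were also the highest in the endothelial, microglia and astrocyte lists. That choice narrows the range of these lists, so a smaller r in the 7 cannot be read as a weaker relation. From all 10 libraries to the 7, microglia markers went from r = 0.78 to 0.19 with Hmox1 and from 0.84 to 0.57 with Nqo1. Without untreated 3 and RG2833 5 these were 0.73 and 0.88. Astrocyte markers went from 0.76 to 0.35 with Hmox1 and from 0.87 to 0.64 with Gpx4, and neuron markers from -0.76 to -0.59 with Hmox1. Without untreated 2 and RG2833 5 the astrocyte values were 0.88 and 0.76. Without untreated 1 and 3 the neuron value was -0.49. The astrocyte list went with Nqo1 (r = 0.88, rho = 0.93; permutation p = 0.00037 and 0.00027, adjusted p = 0.0128 and 0.0189), with r = 0.87 without untreated 2 and RG2833 5 and 0.61 in the 7 others. The neuron list ran against Nfe2l2 (r = -0.86, rho = -0.82; permutation p = 0.00145 and 0.00578, adjusted p = 0.0203 and 0.0506), with r = -0.71 without untreated 1 and 3. Srxn1 ran against the microglia list (r = -0.86, rho = -0.85; permutation p = 0.00319 and 0.00286, adjusted p = 0.0257 and 0.0362), with r = -0.41 without untreated 3 and RG2833 5. In the 7 other libraries, which also leave those out, r was -0.44 and rho -0.75.

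By their summed level, microglia markers ran from 603 to 1119 CPM in untreated and from 651 to 910 CPM in RG2833 rats, and untreated 3 was the highest. Astrocyte markers ran from 8082 to 12538 CPM in untreated and from 9359 to 14281 CPM in RG2833 rats, with 9 of 9 tested markers at a higher mean in RG2833, against 5652 of all 12161 genes. Of the 9, 2 had an unadjusted p under 0.05 (5.66% of all genes) and 0 passed the adjustment, and the mean log2 CPM of the list differed by 0.31 (exact permutation p = 0.0952). Endothelial markers ran from 465 to 907 CPM and from 549 to 961 CPM, and neuron markers from 8304 to 10513 CPM and from 8981 to 10760 CPM. Perivascular macrophage markers ran from 6.41 to 29.1 CPM in untreated and from 6.64 to 9.83 CPM in RG2833 rats, and the highest was the choroid-rich untreated 2. Of 5 such markers 4 were tested, all 4 had a lower mean in RG2833, 3 of them at an unadjusted p under 0.05 (5.66% of all genes), and 0 passed the adjustment. The mean log2 CPM of that list did not pass an exact permutation test (p = 0.127), and 6509 of all 12161 genes had a lower mean. Ribosomal RNA took 8.92% to 11.4% of counts in untreated 3, RG2833 4 and RG2833 5, and 4.07% to 8.71% in the other 7. The part of cell makeup or RNA quality in the levels of the 10 genes was not tested.

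**Figure D4:**
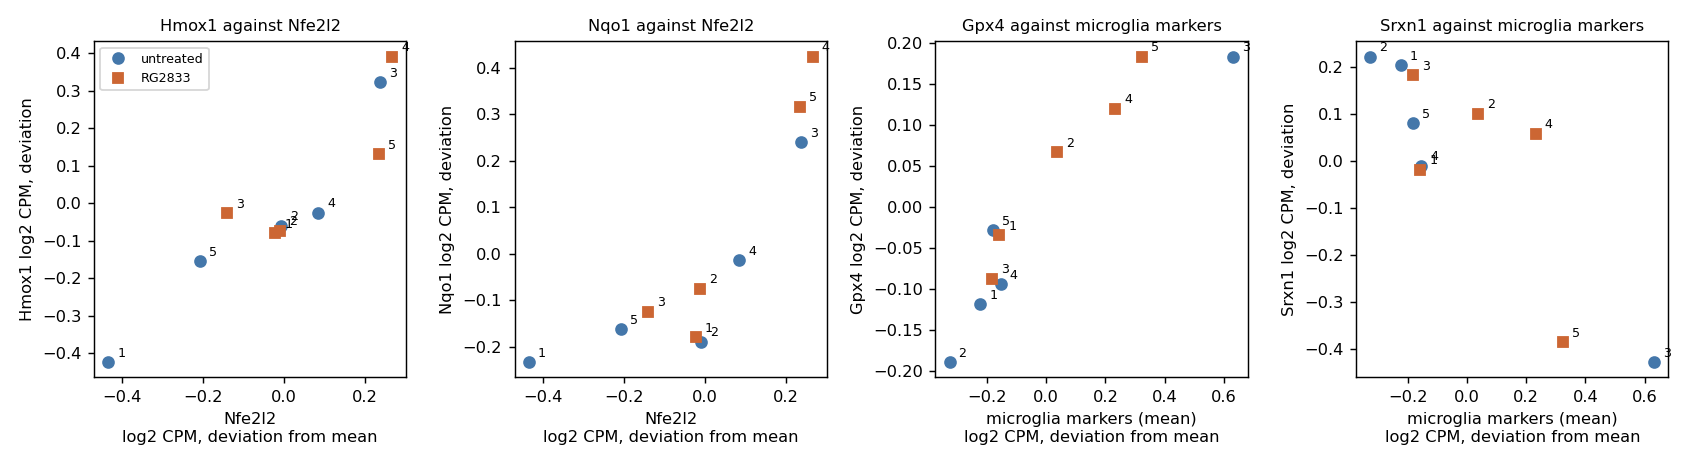
Each point is a library (circles untreated, squares RG2833, numbers are replicates), and both axes are deviations of log2 CPM from the mean of 10 libraries. From left to right, Hmox1 and Nqo1 against Nfe2l2 (r = 0.92 and 0.85), and Gpx4 and Srxn1 against the mean of the microglia markers (r = 0.93 and -0.86); points of both groups are interspersed, and untreated 3 and RG2833 5 set the low end of Srxn1.

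By the centred values, the genes most like Nfe2l2 over the 10 libraries were C2 (r = 0.97), Rsu1 (0.97) and Klc4 (0.97). Those most like Hmox1 were Sdc4 (0.98), Macrod1 (0.97) and Adam17 (0.96), and those most like Nqo1 were Fermt2 (0.97), Lfng (0.97) and Trak1 (0.97). They were picked from 12161 genes on 10 libraries and are given as a description. Sdc4, a cell-surface proteoglycan, was at 100.5 CPM in untreated 3 and 107 and 99.8 CPM in RG2833 4 and 5, against 66.0 to 90.3 CPM elsewhere. Fermt2, an integrin-binding protein, was at 161, 183 and 194 CPM in the same libraries, against 117 to 145 CPM elsewhere.

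The wider antioxidant network was read from 5 lists: regulators and partners of Nrf2, further targets, glutathione synthesis and use, thioredoxin and peroxiredoxin, and superoxide dismutase with heme or iron handling. Of their 83 genes 80 were matched and tested, and 0 passed an adjusted p of 0.05. At an unadjusted p under 0.05 there were 8 (10%), 5 with a higher and 3 with a lower mean, beside 5.66% of all genes. The groups did not overlap for 2 of the 80 (2.5%), Gpx3 and Prdx3, beside 1.00% of all genes. The count of 8 moved with the libraries kept, as did the share of all genes. It was 13 (16.2%, all genes 14.2%) without untreated 3. It was 5 (6.25%) without untreated 2 or RG2833 2, where all genes gave 4.17% and 5.30%. It was 4 (5%) without untreated 4 or RG2833 3, 4 or 5, where all genes gave 4.88%, 4.81%, 3.07% and 3.47%. Without untreated 3 or 4 or RG2833 2 or 3 the lists were thus near the share of all genes. The median log2 fold change was 0.02 for the 80 genes, 0.05 for the 17 of the thioredoxin list and -0.01 for the 22 of the glutathione list, against -0.01 for all genes tested. Among the 12 regulators, 0 had an unadjusted p under 0.05, 7 had a higher mean and 5 a lower one.

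Gpx3, the secreted glutathione peroxidase, had the smallest p of these lists and did not pass the adjustment. It was measured at 16.4, 17.01, 15.6, 20.6 and 15.3 CPM in untreated rats 1 to 5 and 13.9, 12.5, 12.4, 14.7 and 12.03 CPM in RG2833 rats 1 to 5. Every RG2833 rat lay below every untreated rat (difference on the log2 scale -0.37, SE 0.10, 95% interval -0.59 to -0.15; edgeR adjusted p = 0.841, exact permutation p = 0.00794, the smallest possible of the latter). Its log2 fold change ran from -0.41 to -0.29 over all alternatives. Txnip, which binds and inhibits thioredoxin, was measured at 50.3, 98.9, 87.5, 95.8 and 78.7 CPM in untreated rats 1 to 5 and 54.3, 58.6, 38.5, 66.8 and 74.1 CPM in RG2833 rats 1 to 5. Untreated 1 overlapped the RG2833 rats, and the other untreated rats lay above all 5 of them (difference on the log2 scale -0.49, SE 0.20, 95% interval -0.94 to -0.04; edgeR adjusted p = 0.841, exact permutation p = 0.0794).

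Of the 17 genes of the thioredoxin and peroxiredoxin list, 13 had a higher and 4 a lower mean in RG2833, against 5652 higher among all 12161 genes. All 6 peroxiredoxins were among the 13, and 0 of them passed the adjustment. The log2 fold change was 0.05 for Prdx1 and Prdx2 (SE 0.06 and 0.05), 0.13 for Prdx4 (SE 0.14) and 0.04 for Prdx5 (SE 0.05), and Prdx3 and Prdx6 had an unadjusted p under 0.05. Prdx3, the mitochondrial peroxiredoxin, was measured at 54.1, 53.01, 49.6, 51.3 and 49.9 CPM in untreated rats 1 to 5 and 56.2, 54.3, 58.01, 55.9 and 57.4 CPM in RG2833 rats 1 to 5. The groups did not overlap, with a narrow gap between untreated 1 and RG2833 2 (difference on the log2 scale 0.13, SE 0.05, 95% interval 0.02 to 0.23; edgeR adjusted p = 0.841, exact permutation p = 0.00794). Prdx6, a peroxiredoxin abundant in astrocytes, was measured at 151, 144, 202, 148 and 156 CPM in untreated rats 1 to 5 and 165, 192, 184, 229 and 222 CPM in RG2833 rats 1 to 5. Untreated 3 lay among the RG2833 rats (difference on the log2 scale 0.31, SE 0.12, 95% interval 0.05 to 0.57, edgeR adjusted p = 0.841, exact permutation p = 0.0476). It did so in the astrocyte list too, where, unlike for Prdx6, untreated 4 and 5 also lay above RG2833 1. The part of astrocyte content in the level of Prdx6 was not tested. Slc3a2, the partner chain of Slc7a11 and of other amino acid carriers, was at 211 ± 19.5 CPM without and 244 ± 18.8 CPM with RG2833 (log2 fold change 0.21, SE 0.08; edgeR adjusted p = 0.841). Glrx, a glutaredoxin, was at 46.2 ± 3.50 CPM without and 51.6 ± 3.56 CPM with RG2833 (log2 fold change 0.16, SE 0.07; edgeR adjusted p = 0.841). Cbr1, a carbonyl reductase, was at 38.5 ± 3.23 CPM without and 34.01 ± 2.17 CPM with RG2833 (log2 fold change -0.18, SE 0.07; edgeR adjusted p = 0.841), and its counts were not whole in any library.

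**Figure D5:**
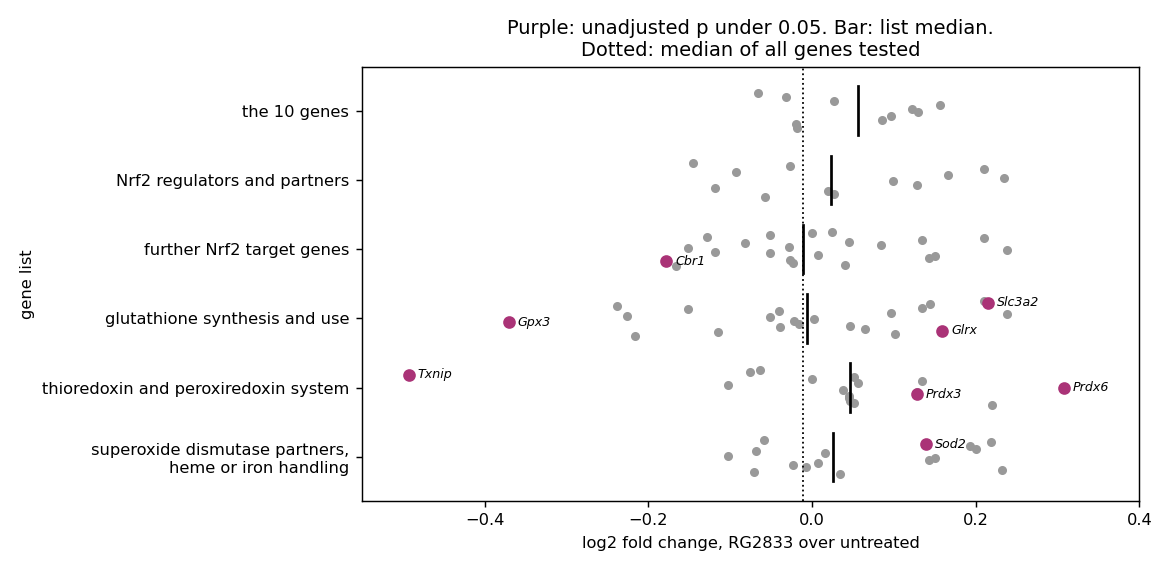
Log2 fold change of RG2833 over untreated (x axis) for each tested gene of the 10 genes and the 5 pathway lists (y axis); purple points have an unadjusted p under 0.05, bars are list medians and the dotted line is the median of all genes tested. The 8 named genes run from -0.49 for Txnip to 0.31 for Prdx6, and 0 of the 10 genes in the top row are purple.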

How the data were processed

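Per the labels' protocols, column-purified RNA went into stranded mRNA libraries. The deposited RSEM expected counts per gene are estimates (11.6% not whole). The submitters' processing notes name bcl2fastq 2.17, Bowtie2 2.1.0, RSEM 1.2.15, edgeR and the build rn6, with no role or order; annotation and filters are not given in the sources used here. The second deposited table holds the authors' TMM-normalized signal in CPM. Of its values above 0, 100% were whole multiples of 1 step per library (tolerance 0.05 reads), and 99.9% of the recovered reads equalled the rounded counts.

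Counts were rounded and filtered with filterByExpr (minimum count 10, total 15). They were scaled by TMM and fitted over 12161 genes with edgeR 4.0.16 (robust quasi-likelihood, R 4.3.3). Adjustment was by Benjamini-Hochberg at 0.05. Intervals are at 95% and cover the spread of the fit. A prior count of 2 was added for log2 CPM. Single values were compared by two-sided exact permutation over 252 regroupings, whose smallest p is 0.00794. Correlations used 100000 permutations. The fits were tested on simulated data. No 2 libraries agreed within sampling noise (chi-square per gene at least 7.38 over 45 pairs).

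Members and lists were chosen with earlier results of these data known. Named are the 10 genes, 10 fixed pathway genes, pathway genes at an unadjusted p under 0.05, and the 3 genes most like Nfe2l2, Hmox1 and Nqo1. Alternatives were other scalings, filters, tools, a replicate block and left-out libraries. Older symbols were matched through RefSeq (GRCr8), used for names and start-site windows only.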

Additional observations from a re-analysis of the deposited data

Results flagged for a closer look

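Values of the named genes, ratios and marker lists were compared with the other 4 libraries of their group, and 5 of 78 sets of 5 had a library whose gap to the nearest exceeded 0.71 of the range, where chance flags about 1 in 20 (3.9). Untreated 3 was set apart in 4 of them. In that library Gsr was low at 28.0 CPM (gap 0.746 of the range), Hmox2 was low at 66.7 CPM (0.842), Prdx6 was high at 202 CPM (0.794) and the mean log2 CPM of the microglia markers was high at 6.45 (0.820). In RG2833 1, Gpx1 was high at 81.0 CPM (0.916), in a library rich in choroid plexus RNA. None of the 10 genes was among these.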

How the results depend on the processing

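Over 21 alternatives each, 7 of the 10 genes kept their sign and 0 passed an adjusted p of 0.05; the smallest was 0.347. The exceptions in sign were Gclc, Srxn1 and Cat. Genes past the adjusted threshold numbered 0 in every edgeR and limma fit and 7 in DESeq2, and 688 again at an unadjusted p under 0.05 on the whole reads recovered from the authors' table. With a replicate block there were 401 genes and 5 pathway genes at an unadjusted p under 0.05. The numbers come from the sample titles, which name no pairing, and were taken as names of rats. Same-numbered rats had correlations of deviations from -0.49 to -0.03, and 0 libraries correlated best with their own number.

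With each library left out in turn, genes at an unadjusted p under 0.05 ran from 375 to 1732, members from 0 to 1 and pathway genes from 4 to 13. Log2 fold changes ran from -0.031 to 0.0021 for Gclc, -0.13 to 0.053 for Srxn1 and -0.050 to 0.0085 for Cat. They ran from -0.12 to 0.038 for Bach1, -0.14 to 0.0098 for Gsr, -0.039 to 0.028 for Txn1 and -0.12 to 0.13 for Gpx1, and the Nfe2l2 to Keap1 ratio from -0.058 to 0.094. Without untreated 2 and RG2833 1, Srxn1 was at 0.017, Txn1 at -0.011 and Gpx1 at 0.017. Txn1 was at -0.0052 with upper-quartile scaling and -0.0027 without ribosomal RNA rows, and Gpx1 at 0.0093 in limma on log2(authors' CPM + 1). Upper-quartile scaling gave 259 higher and 400 lower genes at an unadjusted p under 0.05, against 358 and 330, and limma on the authors' CPM 387 and 254. The cause of these shifts was not tested. The recovered-read fit, the fit without ribosomal RNA rows, the 7-library correlations and the pathway counts over alternatives were added after the data were seen. Differences well inside the printed intervals cannot be resolved with 5 rats a group.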
